A study of Saccharomyces cerevisiae with 18 samples.

Results

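The ATG genes of Saccharomyces cerevisiae encode the proteins that form and guide autophagosomes. They were taken as every locus whose gene name in the deposited FPKM table was ATG followed by a number alone, which gave 28 of the 6713 loci with counts. RNA-Seq had been carried out on 18 libraries of S96, an S288c-derived laboratory strain (MATa lys5) in which the coding region of YRR1, the gene of a zinc finger transcription factor, was replaced by a hygromycin resistance marker. All cells therefore lacked the chromosomal YRR1 coding region and carried YRR1 on the plasmid pGS35 under its endogenous promoter with G418 selection, in 1 of 3 forms: that of S96, that of YJM789, or the S96 form altered by I775E. Cells of each allele were grown in YPD (glucose medium), in YPD with 0.25 µg/ml of the mutagen 4-nitroquinoline-N-oxide (4NQO) for 2.5 h, or in medium with glycerol, a nonfermentable carbon source. Each of the 9 groups held 2 libraries from replicate cultures, numbered S1 to S18 in the labels. The YPD and 4NQO libraries of an allele came from subcultures of the same 2 cultures, but the labels do not give which library goes with which.

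In autophagy a double membrane closes around cytoplasm or a chosen cargo and fuses with the vacuole, where hydrolases break the content down. The Atg1 kinase complex starts the process, vesicles with Atg9 bring membrane, and 2 ubiquitin-like systems attach Atg8 to phosphatidylethanolamine on the growing membrane. Receptor proteins tie single cargoes to Atg8 and Atg11, for example mitochondria in mitophagy and vacuolar enzymes in the cytoplasm-to-vacuole targeting (Cvt) pathway. In yeast, autophagy is known for its response to starvation, and mitophagy for its response to growth on nonfermentable carbon sources.

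Total counts ranged from 1475372 to 2826771 per library, and the 28 ATG genes took 1427 to 5698 of them. The 2 libraries of a group correlated at a Pearson r of 0.962 to 0.984 over the log2 CPM (counts scaled to library size) of all loci tested. For I775E in 4NQO, 1 library of another group was closer (0.973) than the group's own partner (0.971), and for YJM789 in 4NQO likewise (0.983 against 0.979). For the labelled mating type MATa, the 5 a-specific genes summed to 244 to 3991 CPM and the 3 alpha-specific genes to 5.31 to 54.2 CPM. The kinase gene SNF1, whose product is needed for growth on glycerol and acts on autophagy, had 0 to 2 counts in the 6 I775E libraries and 179 to 297 in the other 12 libraries. The I775E allele and the missing SNF1 transcript cannot be told apart in any comparison with I775E. YRR1 itself was lower in I775E (45.6 ± 5.97 CPM in YPD, SD, n = 2) than with the S96 allele (119 ± 3.25) or the YJM789 allele (88.3 ± 11.8). In 4NQO the YRR1 level was 58.1 ± 6.30 CPM in I775E, 138 ± 4.87 with S96 and 103 ± 0.195 with YJM789, and in glycerol it was 118 ± 28.5, 233 ± 27.5 and 168 ± 21.7 CPM in the same order.

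Of the 28 members, 27 passed the filter on low counts, and the same number passed when the glycerol libraries were left out of the filter or when YPD libraries alone were used. ATG16, whose product binds the Atg12-Atg5 conjugate, did not pass, with 0 to 2 counts per library and 9 in all. Of its 453 bases (R64, chrXIII:574476-574928), 316 lie in the locus YMR158W-B, and the part of this overlap in its low count was not tested. Smaller overlaps were 24 bases of ATG29 with YPL165C and 141 bases of ATG34 with YOL083C-A, and the libraries held no strand information. Counts were low for many members: 10 of the 27 had fewer than 20 counts in at least 1 YPD library. Differences below are log2 fold changes with their standard error (SE), and a gene was called when its Benjamini-Hochberg adjusted p over all 5766 loci tested was under 0.05. CPM is a share of a library's counts scaled by the trimmed mean of M values, so the RNA content of a cell was not measured and less RNA of a gene per cell cannot be told apart from more RNA of other genes.

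Before scaling, the 28 ATG genes together had 717 to 934 CPM in YPD, 1133 to 1291 CPM in 4NQO and 2187 to 2762 CPM in glycerol, so the ranges of the 3 media did not overlap. With the S96 allele the 27 tested members summed to 801 ± 0.569 CPM in YPD, 1224 ± 16.5 CPM in 4NQO and 2128 ± 148 CPM in glycerol (mean ± SD, n = 2). With YJM789 the sums were 865 ± 55.3, 1128 ± 13.8 and 2350 ± 34.6 CPM, and with I775E they were 969 ± 19.9, 1145 ± 2.33 and 2727 ± 141 CPM in the same order. Levels between genes were compared only per length, in FPKM. In YPD the highest level was that of ATG27, the gene of a membrane protein that travels with Atg9, at 171 to 180 FPKM with S96, 144 to 156 with YJM789 and 153 to 154 with I775E. ATG33, the gene of a mitochondrial outer membrane protein used in mitophagy, came next in YPD (78.3 to 81.6 FPKM with S96) and first in glycerol, at 721 to 873 FPKM with S96, 832 to 850 with YJM789 and 926 to 930 with I775E. ATG8 moved from rank 11 of the members in YPD (12.3 to 14 FPKM) to rank 2 in glycerol (187 to 226 FPKM) with the S96 allele. The next levels in glycerol with S96 were those of ATG27, ATG22, ATG19 and ATG34 at 99.3 to 131 FPKM, and the ranges of neighbours in this order overlapped. ATG16 and ATG17 had the lowest FPKM in glycerol with S96 (1.0 to 2.2 and 7.5 to 9.3).

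**Figure D1:**
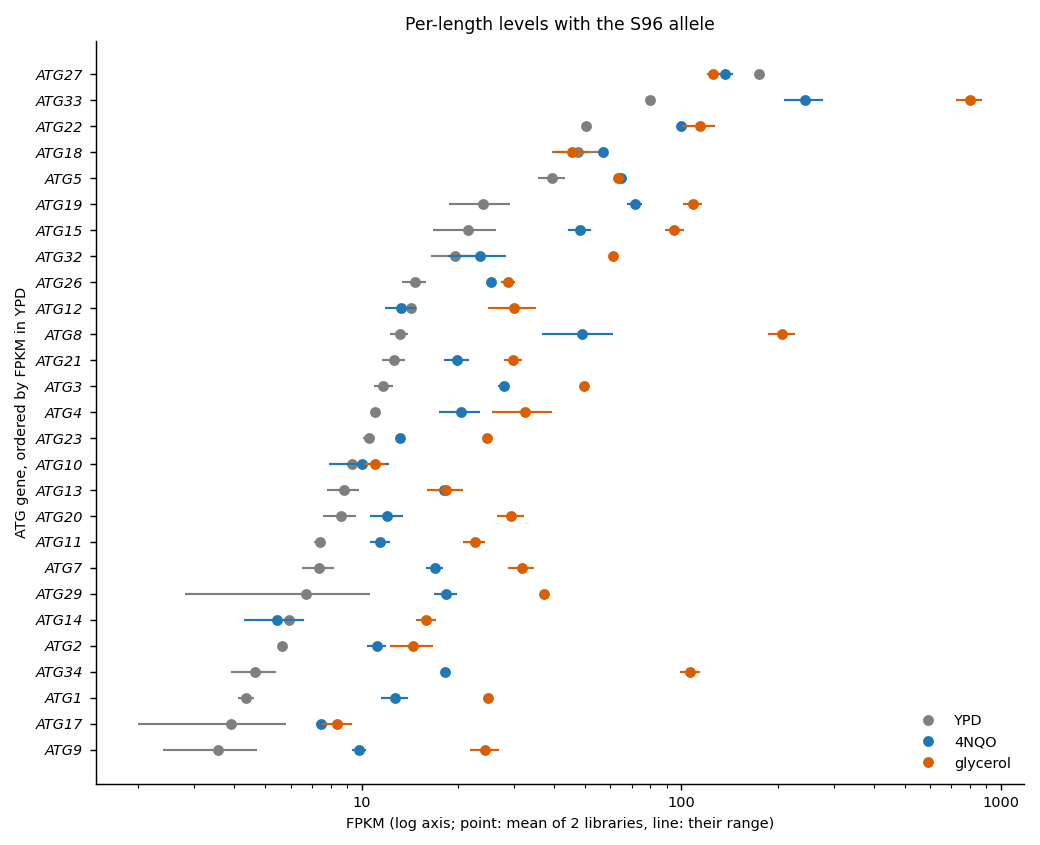
FPKM of 27 ATG genes (ATG16 not drawn) with the S96 allele, on a log axis, in YPD (grey), 4NQO (blue) and glycerol (orange); points are means of 2 libraries and lines their range. Most genes lie furthest right in glycerol, ATG27 lies furthest right in YPD, and ATG33 reaches 721 to 873 FPKM in glycerol.

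In glycerol the ATG genes were higher than in YPD with each allele. With S96, 22 of 27 members were called higher and 1 lower, against 29.1% of all loci higher and 28.6% lower (57.7% in either direction). With YJM789, 21 were called higher and 0 lower, against 28.5% and 27% of all loci (55.6% together). Among the members 0 were lower at an unadjusted p under 0.05 either, and DESeq2 called 20 higher and 0 lower. With I775E, 21 were called higher and 1 lower, against 33.2% and 32.3% of all loci (65.5% together). The median log2 fold change of the members was 1.37, 1.34 and 1.62 for S96, YJM789 and I775E, where that of all loci was 0.04, 0.04 and 0.03. 19 members were called higher with all 3 alleles and 23 with at least 1, and the same overlap was not counted over all loci. ATG10, ATG12 and ATG18 were not called in either direction, and ATG27 was called only as lower, with S96. Leaving out 1 library at a time left 20 to 23 called with S96, 17 to 18 with YJM789 and 20 to 22 with I775E. The glycerol cultures also differed from the YPD cultures in growth time and in a wash according to the study's methods, which cannot be told apart from the carbon source.

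**Figure D2:**
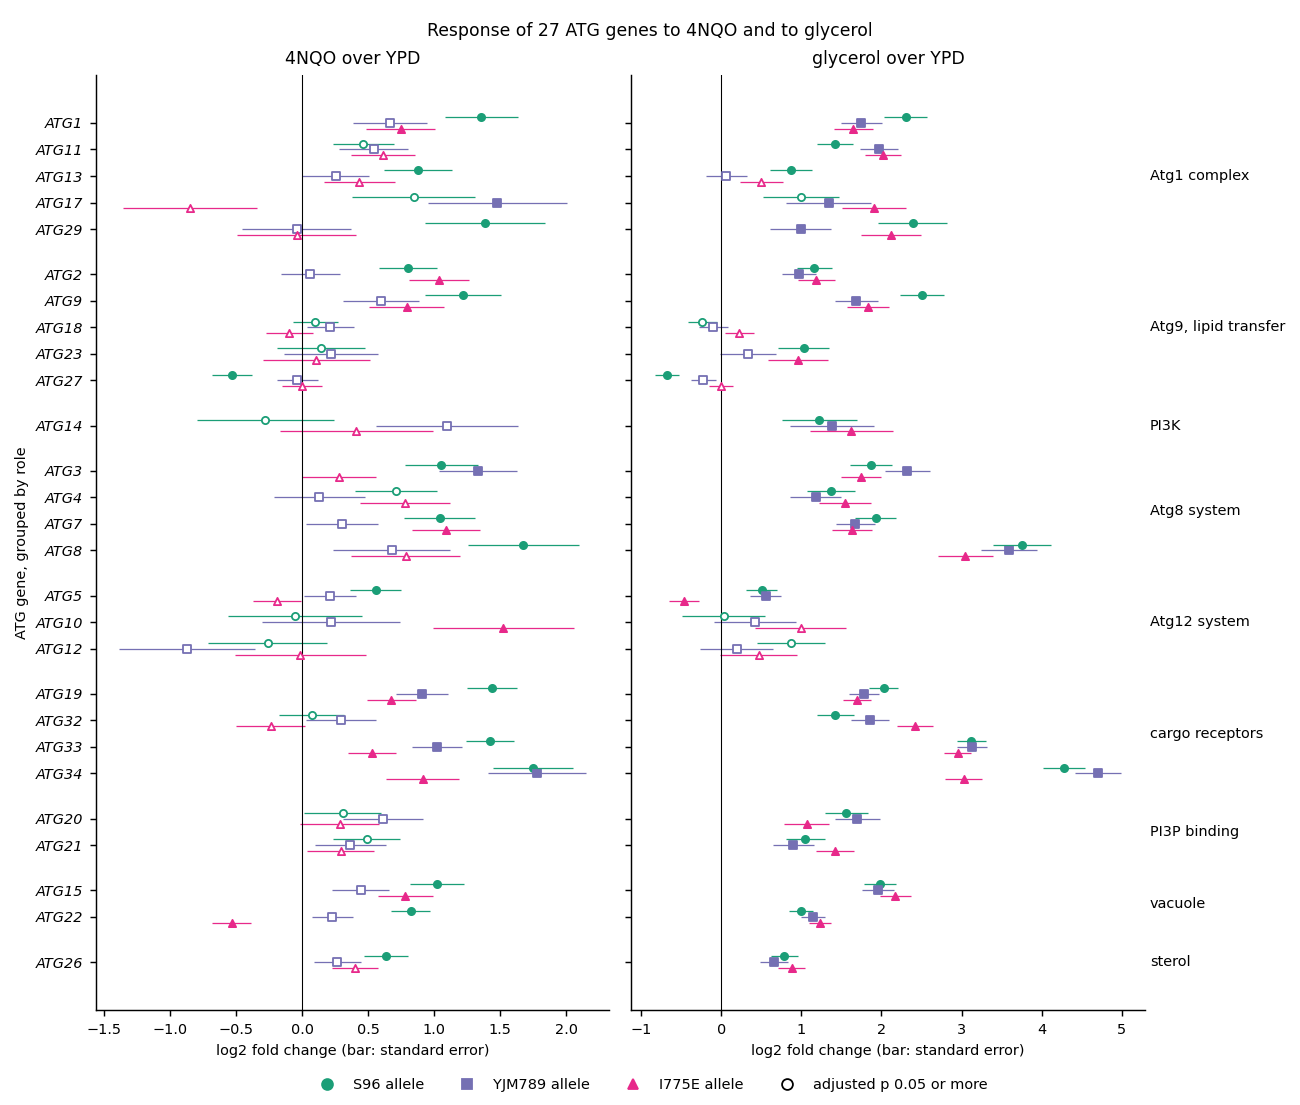
Log2 fold change of 27 ATG genes, grouped by role, in 4NQO over YPD (left) and glycerol over YPD (right) for the S96 (circles), YJM789 (squares) and I775E (triangles) alleles; bars are standard errors and open symbols did not pass an adjusted p of 0.05. In glycerol 22, 21 and 21 genes lie at called values above 0, with ATG34 at 4.28, 4.71 and 3.03.

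Among the cargo receptors and genes of organelle autophagy, all 4 members were called higher in glycerol with each allele. Of all loci, 29.1%, 28.5% and 33.2% were called higher with S96, YJM789 and I775E. These shares also stand beside the glycerol counts of the other roles below. ATG34, the gene of a receptor for alpha-mannosidase in starved cells, had 4.98 and 7.50 CPM (10 and 19 counts) in the 2 YPD libraries with S96 and 114 and 135 CPM in glycerol, a 19.4-fold difference (log2 4.28 ± 0.26, adjusted p = 6.4e-15). With YJM789 its level was 2.90 and 6.22 CPM in YPD and 120 and 122 CPM in glycerol (26.1-fold). With I775E it was 13.8 and 11.1 CPM in YPD and 101 and 102 CPM in glycerol (8.14-fold). The lowest count of ATG34 in any library was 5, so its folds with S96 and YJM789 rest on few YPD counts. The libraries of both media were far apart for this gene, and in YPD both I775E libraries lay above the other 4 libraries. ATG33 rose from 47.8 and 54.1 CPM to 396 and 494 CPM with S96 (8.70-fold), from 44.6 and 69.0 to 496 and 501 CPM with YJM789 (8.75-fold) and from 82.8 and 66.1 to 565 and 582 CPM with I775E (7.72-fold). ATG19, the receptor gene for aminopeptidase I in the Cvt pathway, is a neighbour of ATG34 on chromosome XV with 1774 bases between the genes, and the longest run of identical bases in their coding regions was 12 bases. ATG19 rose from 37.4 and 26.1 CPM to 117 and 138 CPM with S96 (log2 2.03 ± 0.19), with 1.78 ± 0.19 for YJM789 and 1.7 ± 0.18 for I775E. ATG32, the mitophagy receptor gene, rose from 26.9 and 40.3 CPM in YPD to 92.8 and 89.6 CPM in glycerol with S96 (2.68-fold). With YJM789 ATG32 had 40.0 and 20.9 CPM in YPD and 107 and 114 CPM in glycerol (3.63-fold), and with I775E it had 31.2 and 39.6 CPM in YPD and 207 and 174 CPM in glycerol (5.35-fold). For ATG32 every glycerol library was above every YPD library.

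All 4 genes of Atg8 and its conjugation were called higher in glycerol with each allele. ATG8, the gene of the ubiquitin-like protein on the autophagosome membrane, had 4.48 and 5.53 CPM (9 and 14 counts) in YPD and 61.3 and 76.3 CPM (134 and 172 counts) in glycerol with S96, a 13.5-fold difference (log2 3.75 ± 0.36, adjusted p = 2.4e-10). With YJM789 it had 4.06 and 10.2 CPM in YPD and 106 and 67.6 CPM in glycerol (12.05-fold), and with I775E 10.2 and 5.54 CPM in YPD and 74.2 and 56.1 CPM in glycerol (8.25-fold). The YPD values of ATG8 rested on 7 to 23 counts per library, and every glycerol library lay above every YPD library. ATG3 and ATG7, the conjugating and the activating enzyme genes, rose by 1.87 ± 0.27 and 1.93 ± 0.26 on the log2 scale with S96, by 2.32 ± 0.28 and 1.67 ± 0.25 with YJM789, and by 1.75 ± 0.25 and 1.64 ± 0.25 with I775E. ATG4, the protease gene that processes Atg8, rose by 1.37 ± 0.30 with S96 and 1.55 ± 0.32 with I775E. ATG4 was also called with YJM789 (adjusted p = 0.0022), a call that was lost without library S2 (0.79) or S14 (0.78).

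Of the Atg1 complex and its scaffolds, 4 of 5 members were called higher in glycerol with each allele. ATG1, the kinase gene, had 11.5 and 13.8 CPM in YPD and 61.3 and 64.8 CPM in glycerol with S96 (4.93-fold), 19.7 and 19.2 against 46.5 and 84.8 CPM with YJM789 (3.36-fold), and 23.2 and 22.6 against 68.7 and 74.6 CPM with I775E (3.14-fold). The YPD libraries of ATG1 with S96 were the lowest of all 18. ATG11, the scaffold gene of selective autophagy, rose by 1.42 ± 0.22, 1.97 ± 0.24 and 2.02 ± 0.22 with S96, YJM789 and I775E. ATG29, a scaffold gene of starvation-induced autophagy, rose by 2.39 ± 0.43, 0.99 ± 0.38 and 2.12 ± 0.38, and with YJM789 its call was lost without S1 (0.65) or S14 (0.65). ATG17, the gene that holds this scaffold together, was not called with S96 (1.0 ± 0.47, adjusted p = 0.07) and rose by 1.34 ± 0.53 with YJM789 and by 1.91 ± 0.40 with I775E. The YJM789 call of ATG17 was lost without S1 (1.36), S2 (1.32) or S13 (0.97), and with the DESeq2 test (1.33, adjusted p = 0.0517). ATG13, the regulatory subunit gene of the kinase, had 22.4 and 19.4 CPM in YPD and 42.5 and 33.7 CPM in glycerol with S96, a call (0.87 ± 0.26) that was lost without S4 (0.76) or S15 (0.58). With YJM789 ATG13 had 31.9 and 33.4 CPM in YPD and 33.9 and 34.4 CPM in glycerol, a log2 fold change of 0.07 ± 0.26 that did not pass. With I775E it had 23.6 and 22.6 CPM in YPD and 43.7 and 23.2 CPM in glycerol, so that the ranges met, and its 0.50 ± 0.27 was called only without S18 (0.92).

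**Figure D3:**
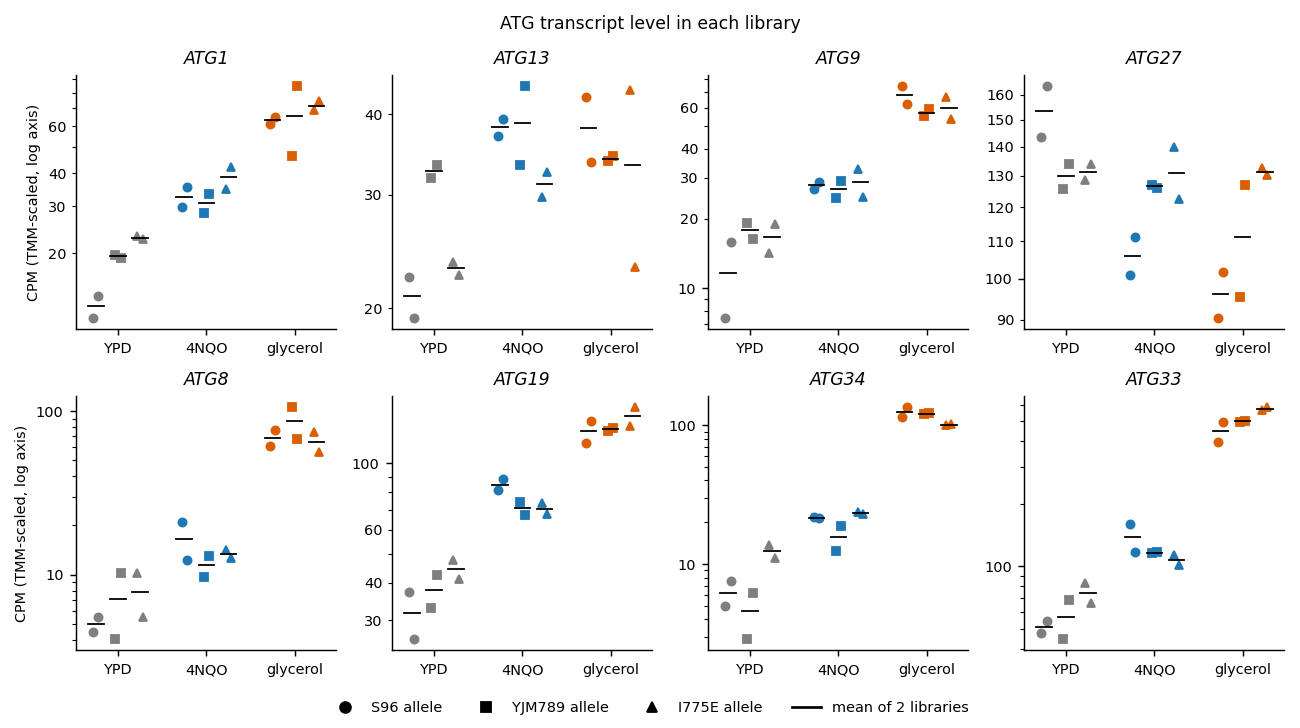
CPM of 8 ATG genes in each of the 18 libraries, on log axes that differ between panels; symbols mark the Yrr1 allele, colours the medium and black lines the mean of 2 libraries. ATG34 lies at 2.90 to 13.8 CPM in YPD and at 101 to 135 CPM in glycerol, while ATG27 is highest in YPD with S96 (143 and 163 CPM).

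Of the 5 genes of membrane supply, 3 were called higher and 1 lower in glycerol with S96. With YJM789 the counts were 2 and 0, and with I775E they were 3 and 0. Of all loci, 29.1%, 28.5% and 33.2% were called higher and 28.6%, 27% and 32.3% lower with S96, YJM789 and I775E. Whether the counts of these 5 genes differ from those shares was not tested. ATG9, the gene of the membrane carrier itself, had 7.47 and 15.8 CPM in YPD and 74.5 and 62.1 CPM in glycerol with S96 (5.69-fold). With YJM789 ATG9 had 19.1 and 16.4 against 55.1 and 59.4 CPM (3.22-fold), and with I775E 14.3 and 19.0 against 66.6 and 53.5 CPM (3.56-fold), again with no overlap of the media. ATG2, the lipid transfer protein gene, rose by 1.16 ± 0.22, 0.97 ± 0.21 and 1.19 ± 0.23 with S96, YJM789 and I775E. ATG27 went the other way with S96, from 143 and 163 CPM in YPD to 90.5 and 102 CPM in glycerol (log2 -0.68 ± 0.15, adjusted p = 0.00034). With YJM789 ATG27 had 126 and 134 CPM in YPD and 95.5 and 127 CPM in glycerol (-0.22 ± 0.15), and with I775E 129 and 134 against 132 and 130 CPM (-0.00 ± 0.15), neither of which passed. ATG18, whose product binds phosphoinositide with Atg2, gave -0.24 ± 0.18, -0.10 ± 0.18 and 0.23 ± 0.18 and was not called with any allele. ATG23, a partner gene of ATG27, was called with S96 (1.03 ± 0.32) and I775E (0.96 ± 0.38) and not with YJM789 (0.33 ± 0.35), and its I775E call was lost without S6 (0.53) or S18 (0.84).

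Both vacuolar members, both Cvt members that bind phosphoinositide, ATG26 and ATG14 were called higher in glycerol with each allele. ATG15, the vacuolar lipase gene, rose by 1.98 ± 0.20, 1.95 ± 0.20 and 2.17 ± 0.20 in glycerol with S96, YJM789 and I775E, and ATG22, the gene of a vacuolar amino acid exporter, by 1.0 ± 0.15, 1.15 ± 0.15 and 1.23 ± 0.14. ATG20 and ATG21, whose products bind phosphoinositide in the Cvt pathway, were called higher with all alleles (1.07 to 1.7 and 0.90 to 1.42), except that ATG21 with YJM789 was lost without S14 (0.70). ATG26, the sterol glucosyltransferase gene, had 58.8 and 53.7 CPM in YPD and 101 and 93.6 CPM in glycerol with S96, rose by 0.79 ± 0.17, 0.66 ± 0.17 and 0.88 ± 0.17, and the YJM789 call was lost without S13 (0.47). ATG14, a subunit gene of the autophagy-specific phosphatidylinositol kinase complex, rose by 1.23 ± 0.47, 1.38 ± 0.52 and 1.62 ± 0.52. Its S96 call was lost without S3 (1.2), S4 (1.25), S15 (1.23) or S16 (1.10), and its YJM789 call without S1 (1.32), S2 (1.45), S13 (1.19) or S14 (1.36). In the Atg12 system, ATG10 and ATG12, the conjugating enzyme and the ubiquitin-like protein genes, were not called with any allele. ATG5, the gene of the Atg12 target, had 39.3 and 35.1 CPM in YPD and 52.6 and 52.8 CPM in glycerol with S96 (0.50 ± 0.20) and 45.8 and 43.5 against 63.3 and 68.0 CPM with YJM789 (0.55 ± 0.19). With I775E ATG5 had 68.1 and 83.1 CPM in YPD and 47.2 and 61.7 CPM in glycerol (-0.46 ± 0.19). These ATG5 calls were lost without S4 (0.42), S15 (0.39) or S16 (0.50) and with the DESeq2 test (0.48) for S96, without S2 (0.52), S13 (0.49) or S14 (0.40) for YJM789, and without S6 (-0.31) or S17 (-0.30) and with the DESeq2 test (-0.45) for I775E.

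Promoter sequence was read for the members that rose most in glycerol. In the 500 bases before the start codon, taken from the RefSeq R64 genome for 6002 protein-coding loci of the count table, 4 motifs were searched on both strands as descriptions only. The stress response element AGGGG, known to be bound by Msn2 and Msn4 and, as a core, by Rph1 and Gis1, was in 15 of the 28 member windows (53.6%) and in 34% of all windows. The Ume6 core GCCGCC was in 2 member windows (7.14%, all windows 9.53%), the Gcn4 site TGACTC in 5 (17.9%, all windows 12.6%), and the Hap box CCAAT in 18 (64.3%, all windows 62.4%). Of the 6 members with the largest log2 fold change in glycerol with S96 (ATG34, ATG8, ATG33, ATG9, ATG29 and ATG1), ATG33 and ATG1 held neither of the first 2 motifs. The stretches of the other 4, and of ATG19 as the only further member with a Ume6 core, follow, read 5′ to 3′ on the coding strand of the gene. Capitals mark the motif as it reads on this strand, which is the reverse complement where it lies on the opposite strand. In ATG8 the capitals hold 2 overlapping Ume6 cores.
ATG34, chrXV:165517-165541, plus strand, AGGGG on the opposite strand, 182 bases before the start codon: ggcacacgcaCCCCTaaagtaggtg
ATG8, chrII:80808-80832, minus strand, AGGGG, 86 bases before the start codon: aaatacaaaaAGGGGaaccattaaa
ATG8, chrII:80785-80809, minus strand, AGGGG, 63 bases before the start codon: aaggttgaggAGGGGattgataaga
ATG8, chrII:80846-80874, minus strand, Ume6 cores on the opposite strand, 124 bases before the start codon: ggttattttcGGCGGCGGCaaaaatattt
ATG9, chrIV:184793-184817, plus strand, AGGGG, 117 bases before the start codon: tcggaactttAGGGGagccacactt
ATG29, chrXVI:237254-237278, plus strand, AGGGG, 69 bases before the start codon: gtgaaaataaAGGGGtgttagtgaa
ATG19, chrXV:168547-168571, plus strand, AGGGG, 165 bases before the start codon: gacccggaaaAGGGGcgtgtgacat
ATG19, chrXV:168674-168699, plus strand, Ume6 core on the opposite strand, 37 bases before the start codon: aggtaattgcGGCGGCacttgcttca

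In 4NQO fewer ATG genes were called than in glycerol with each allele. The same held for all loci, of which 57.7%, 55.6% and 65.5% were called in glycerol with S96, YJM789 and I775E. With S96, 15 of 27 were called higher than in YPD and 1 lower, against 15.9% of all loci higher and 15.3% lower (31.2% together). With YJM789, 5 were called higher and 0 lower, against 10.3% and 9.85% of all loci (20.2% together). At an unadjusted p under 0.05, 8 members were higher and 0 lower with YJM789, and DESeq2 called 4 higher and 0 lower. With I775E, 9 were called higher and 1 lower, against 12.9% and 13% of all loci (25.9% together). For YJM789 the share of members called in either direction (18.5%) was near that of all loci. The median log2 fold change of the members was 0.80, 0.30 and 0.41 for S96, YJM789 and I775E, against 0.03, 0.03 and 0.02 over all loci. The count with S96 was 10 without S4 and 11, 14 and 15 without S9, S10 and S3. With YJM789 it was 3 without S1 and 4 to 6 without S2, S7 or S8. With I775E it was 3 without S6 or S11 and 6 without S5 or S12.

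**Figure D4:**
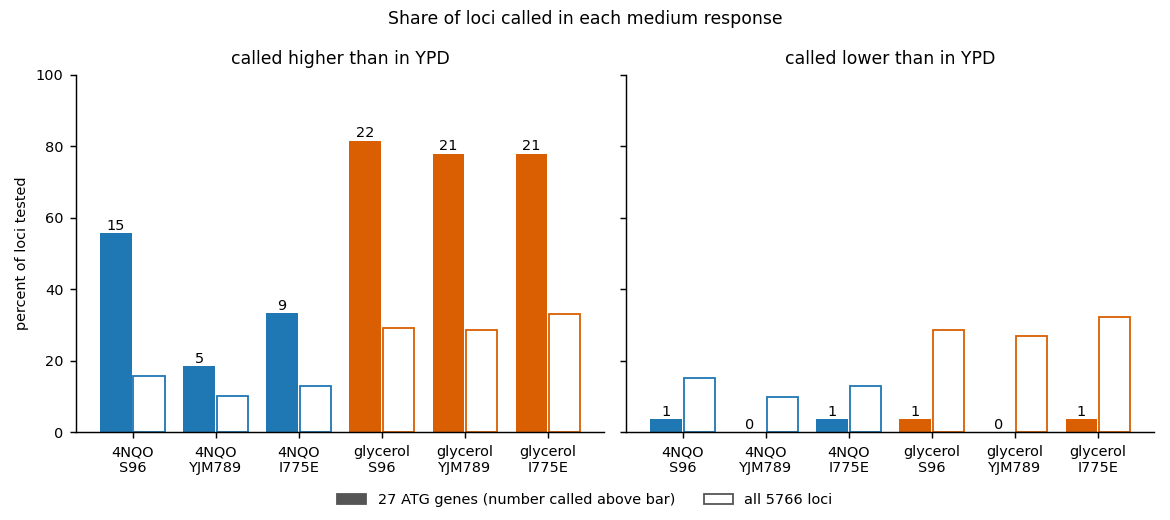
Percent of the 27 ATG genes (filled bars, number called above each) and of all 5766 loci (open bars) called higher (left) or lower (right) than in YPD at an adjusted p under 0.05, for 4NQO (blue) and glycerol (orange) with each allele. In glycerol 77.8% to 81.5% of the ATG genes and 28.5% to 33.2% of all loci were called higher.

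ATG19, ATG33 and ATG34 were called higher in 4NQO with all 3 alleles, an overlap that was not counted over all loci. ATG34 had 21.7 and 21.4 CPM in 4NQO with S96 (log2 1.75 ± 0.30, 3.36-fold over YPD), 12.5 and 19.0 CPM with YJM789 (1.78 ± 0.37) and 23.7 and 22.9 CPM with I775E (0.91 ± 0.28). With each allele both 4NQO libraries lay above both YPD libraries and below the glycerol libraries. ATG19 had 81.3 and 88.3 CPM with S96 (1.44 ± 0.19), 74.2 and 67.4 CPM with YJM789 (0.91 ± 0.19) and 73.7 and 67.5 CPM with I775E (0.67 ± 0.19). ATG33 had 159 and 117 CPM with S96 (1.42 ± 0.18), 115 and 116 CPM with YJM789 (1.02 ± 0.19) and 113 and 101 CPM with I775E (0.53 ± 0.18). The I775E calls were the ones that depended on single libraries, that of ATG34 being lost without S6 (0.75), S11 (0.88) or S12 (0.91), that of ATG19 without S6 (0.57) or S11 (0.61), and that of ATG33 without S6 (0.37), S11 (0.45) or S12 (0.58). ATG32, the other member of this role, had 28.5 and 42.1 CPM with S96, 39.9 and 34.5 CPM with YJM789 and 34.8 and 24.7 CPM with I775E in 4NQO, overlapping its YPD range each time, and was not called.

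Of the 5 Atg1 complex genes, 3, 1 and 1 were called higher in 4NQO with S96, YJM789 and I775E, and of the 4 Atg8 genes 3, 1 and 1. The shares of all loci called higher were 15.9%, 10.3% and 12.9% in the same order. ATG8 had 20.9 and 12.2 CPM with S96 (1.68 ± 0.42, adjusted p = 0.0023), 9.74 and 13.1 CPM with YJM789 (0.68 ± 0.44) and 14.1 and 12.7 CPM with I775E (0.78 ± 0.41). The last pair did not pass, and the S96 call was lost without S9 (1.26). ATG1 had 29.8 and 35.3 CPM with S96 (1.36 ± 0.28, adjusted p = 0.00032), 28.3 and 33.3 CPM with YJM789 (0.66 ± 0.28, adjusted p = 0.095) and 34.8 and 42.2 CPM with I775E (0.75 ± 0.26, adjusted p = 0.033). All 6 of these 4NQO libraries lay above all 6 YPD libraries of ATG1. The I775E call of ATG1 was lost without S5 (0.76), S6 (0.73), S11 (0.88) or S12 (0.58) and with the DESeq2 test (0.72). ATG13 had 37.0 and 39.4 CPM with S96 (0.88 ± 0.26), 33.4 and 44.2 CPM with YJM789 (0.25 ± 0.25) and 29.8 and 32.6 CPM with I775E (0.43 ± 0.27). Its S96 call was lost without S4 (0.77) or S10 (0.83). ATG9 had 26.8 and 28.9 CPM with S96 (1.22 ± 0.29), 24.6 and 29.1 CPM with YJM789 (0.60 ± 0.29) and 32.8 and 24.7 CPM with I775E (0.79 ± 0.28). The S96 call of ATG9 was lost without S3 (0.82), and its I775E call without S5 (0.61), S6 (1.02) or S11 (0.56) and with the DESeq2 test (0.77).

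Other members were called in 4NQO with 1 or 2 alleles. ATG3 had 25.1 and 28.2 CPM with YJM789 against 7.53 and 13.6 CPM in YPD (1.33 ± 0.30), a call that was lost without S1 (0.97), and it was also called with S96 (1.05 ± 0.28). ATG17 had 6.96 and 12.2 CPM with YJM789 (15 and 29 counts) against 3.48 and 3.39 CPM in YPD (6 counts in each), a log2 fold change of 1.48 ± 0.53 at an adjusted p of 0.045. The ATG17 call was lost without S1 (1.49), S2 (1.46) or S8 (0.99), with DESeq2 size factors (1.44) and with the DESeq2 test (1.46). ATG7 was called with S96 (1.04 ± 0.27) and with I775E, where it had 46.4 and 35 CPM against 16 and 22.2 CPM in YPD (1.09 ± 0.26). Its S96 call was lost without S4 (0.93) and its I775E call without S11 (0.86). ATG2 was called with S96 (0.80 ± 0.22) and with I775E, where it had 47.9 and 60.3 CPM against 20 and 32.1 CPM (1.04 ± 0.23), and the S96 call was lost without S9 (0.68). ATG10 had 8.58 and 8.44 CPM in 4NQO with I775E against 2.23 and 3.56 CPM in YPD (5 and 9 counts), a log2 fold change of 1.52 ± 0.53 that was lost without S5 (1.24), S6 (1.91), S11 (1.51) or S12 (1.51) and with the DESeq2 test (1.52, adjusted p = 0.0686). ATG15 was called with S96 (1.02 ± 0.21) and I775E (0.78 ± 0.21), the second being lost without S5 (0.63). ATG5, ATG26 and ATG29 were called with S96 alone (0.56 ± 0.19, 0.63 ± 0.17 and 1.39 ± 0.46). The call of ATG5 was lost without S3 (0.63), S4 (0.47), S9 (0.49) or S10 (0.62) and with the DESeq2 test (0.51), that of ATG26 without S4 (0.57), and that of ATG29 without S4 (0.68) or S9 (1.25). Counts of ATG29 were low, with 14 and 5 in the YPD libraries of S96.

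The members called lower in 4NQO were ATG27 with S96 and ATG22 with I775E. ATG27 had 101 and 111 CPM in 4NQO with S96 against 143 and 163 CPM in YPD (-0.53 ± 0.15, adjusted p = 0.0062), and the call was lost without S4 (-0.43) or S9 (-0.47). In the other alleles ATG27 gave -0.04 ± 0.15 (YJM789) and -0.00 ± 0.15 (I775E). ATG22 had 153 and 148 CPM in 4NQO against 84.2 and 86.5 CPM in YPD with S96, a rise of 0.82 ± 0.15 (adjusted p = 8.0e-05), and 142 and 120 CPM against 114 and 110 CPM with YJM789 (0.23 ± 0.15). With I775E ATG22 had 116 and 113 CPM in 4NQO against 160 and 171 CPM in YPD, a fall (-0.53 ± 0.15, adjusted p = 0.0081) that was lost without S6 (-0.49).

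Between the S96 and YJM789 alleles, 1 member was called in the 3 media together. In YPD 0 of 27 were called, where 0.728% of all loci were higher and 0.156% lower (0.884% together), 4 members had an unadjusted p under 0.05 and DESeq2 called 0. In 4NQO 0 of 27 were called, where 0.0173% of all loci were higher and 0.0347% lower (0.052% together), 1 member had an unadjusted p under 0.05 and DESeq2 called 0. In glycerol ATG22 was called, 1 of 27 members where 2.98% of all loci were higher and 0.763% lower (3.75% together). It had 148 and 193 CPM with S96 and 232 and 263 CPM with YJM789 (0.54 ± 0.14, adjusted p = 0.025), and the call was lost without S13 (0.61), S14 (0.44) or S15 (0.35). The difference of the YJM789 and S96 responses was called for 0 members in 4NQO (0.121% of all loci higher and 0.746% lower, 0.867% together, 4 members at an unadjusted p under 0.05, DESeq2 0) and for 0 in glycerol (0.364% of all loci higher and 0.26% lower, 0.624% together, 4 members at an unadjusted p under 0.05, DESeq2 0). The smaller number of 4NQO calls with YJM789 is therefore not shown to be a difference between these alleles.

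In I775E, which lacked SNF1 transcript, ATG5 and ATG22 were higher in YPD. The share of members called higher against S96 (7.41%) was near that of all loci. So was the share called in either direction against YJM789 (14.8%). Against S96, 2 of 27 members were called higher and 0 lower, where 7.28% of all loci were higher and 4.41% lower (11.7% together), 1 member was lower at an unadjusted p under 0.05, and DESeq2 called 2 higher and 0 lower. ATG5 had 68.1 and 83.1 CPM with I775E against 39.3 and 35.1 CPM with S96 (1.03 ± 0.19, adjusted p = 0.00021), and ATG22 had 160 and 171 CPM against 84.2 and 86.5 CPM (0.95 ± 0.15, adjusted p = 2.6e-05). Both I775E libraries lay above all 4 YPD libraries of the other alleles for both genes. Against YJM789, 3 members were called higher and 1 lower, where 7.42% of all loci were higher and 6.73% lower (14.2% together), and 1 to 2 were left when a library was left out (1 without S1 or S2, 2 without S5 or S6). These were ATG5 (0.76 ± 0.19), ATG22 (0.56 ± 0.15) and ATG34 (1.43 ± 0.38), which were higher, and ATG2 (-0.70 ± 0.24), with 20 and 32.1 CPM in I775E against 37.1 and 48.1 CPM. The call of ATG5 was lost without S2 (0.73) or S6 (0.61), that of ATG22 without S1 (0.59), S2 (0.54) or S6 (0.51), that of ATG34 without S1 (0.99) or S5 (1.27), and that of ATG2 without S1 (-0.87), S2 (-0.50) or S5 (-0.41) and with the DESeq2 test (-0.70, adjusted p = 0.058). In 4NQO, 0 members were called for I775E against S96 (2.01% of all loci higher and 2.5% lower, 4.51% together, 3 members at an unadjusted p under 0.05, DESeq2 0) or against YJM789 (2.03% of all loci in each direction, 4.06% together, 4 members at an unadjusted p under 0.05, DESeq2 0).

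In glycerol, I775E and S96 differed at 8 members that were higher and 1 that was lower, where 20.7% of all loci were higher and 27.6% lower (48.3% together). The median log2 fold change of the members was 0.17 and that of all loci was -0.11, or -0.07 with DESeq2 size factors. ATG17 had 32.6 and 27.8 CPM with I775E (47 and 54 counts) against 8.69 and 11.1 CPM with S96 (1.60 ± 0.39, adjusted p = 0.0011). ATG22 had 413 and 366 CPM against 148 and 193 CPM (1.19 ± 0.14, adjusted p = 5.0e-08), and ATG32 had 207 and 174 CPM against 92.8 and 89.6 CPM (1.06 ± 0.20, adjusted p = 8.1e-05). For these 3 genes both I775E libraries lay above all 4 glycerol libraries of the other alleles, and their calls held without any single library. ATG23 was lower, with 16 and 18.5 CPM against 30.6 and 32.4 CPM (-0.86 ± 0.33), a call lost without S15 (-0.82), S16 (-0.82), S17 (-0.76) or S18 (-0.98) and with the DESeq2 test (-0.83). The other 5 called members were ATG11 (0.49), ATG18 (0.56), ATG21 (0.59), ATG27 (0.45) and ATG33 (0.37), and each lost its call without at least 1 library. The count was 5 without S16, 3 without S17 and 6 to 7 without S15 or S18. Without S16 the values were 0.40 (ATG11), 0.41 (ATG18) and 0.51 (ATG21), and without S17 they were 0.24 (ATG11), 0.42 (ATG18), 0.43 (ATG21), 0.44 (ATG27) and 0.39 (ATG33). ATG11 lost its call with the DESeq2 test (0.53) and without the filter on low counts (0.47), and ATG33 without the filter (0.35). Without S15 and without S18, ATG27 stood at 0.45 and 0.46 and ATG33 at 0.29 and 0.34. Against YJM789 in glycerol, 4 members were higher and 0 lower, where 17.1% and 26.1% of all loci were (43.1% together), 1 member was lower at an unadjusted p under 0.05, and DESeq2 called 4 higher and 0 lower. These were ATG17 (1.77 ± 0.39), ATG32 (0.78 ± 0.20), ATG21 (0.72 ± 0.23) and ATG22 (0.65 ± 0.14). ATG21 had 70.1 and 56.1 CPM with I775E against 35.5 and 40.5 CPM with YJM789 and lost its call without S17 (0.56).

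**Figure D5:**
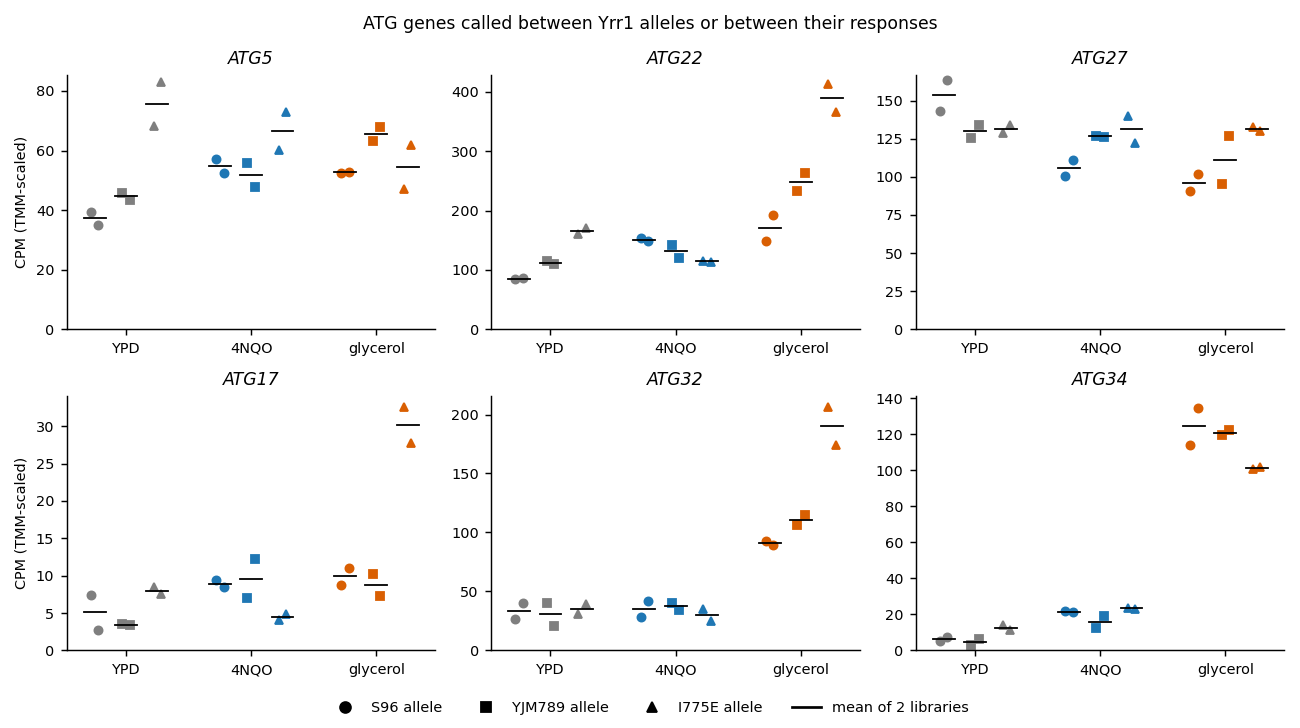
CPM of 6 ATG genes in each of the 18 libraries, on linear axes from 0 that differ between panels; symbols mark the Yrr1 allele, colours the medium and black lines the mean of 2 libraries. In glycerol the I775E libraries (triangles) stand highest for ATG17 (27.8 and 32.6 CPM), ATG22 (366 and 413 CPM) and ATG32 (174 and 207 CPM), and in YPD for ATG5 (68.1 and 83.1 CPM).

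The responses of I775E and the other alleles were compared by interaction terms of the same model. In 4NQO, 2 members differed between I775E and S96 (1.44% of all loci higher and 3.62% lower, 5.06% together) and 1 between I775E and YJM789 (2.72% of all loci higher and 3.69% lower, 6.42% together). The 4NQO response of ATG22 in I775E differed by -1.36 ± 0.21 from that with S96 (adjusted p = 5.3e-05) and by -0.76 ± 0.21 from that with YJM789 (adjusted p = 0.028). The second of these was lost without S1, S2, S5, S6, S7, S11 or S12 (-0.81 to -0.64). The response of ATG33 differed by -0.89 ± 0.26 from that with S96 and was lost without S3 (-0.81), S4 (-0.99), S5 (-0.72), S9 (-0.66), S11 (-0.98) or S12 (-0.79). In glycerol, 4 members differed between I775E and S96 (12% of all loci higher and 19.4% lower, 31.4% together) and 2 between I775E and YJM789 (11.8% of all loci higher and 20.9% lower, 32.7% together). The glycerol response of ATG34 in I775E, a smaller rise, differed by -1.25 from that with S96 and by -1.68 from that with YJM789. The response of ATG5 in I775E was a fall (-0.46) where the other alleles gave a rise (0.50 and 0.55), and it differed by -0.97 and -1.02. ATG32 and ATG27 had a higher log2 fold change in I775E than with S96, by 1.0 and 0.68, where all loci had a median difference of -0.13. The difference of ATG34 was lost without S3 (-1.02) or S5 (-1.09) against S96 and without S1 (-1.24) against YJM789. That of ATG32 was lost without S4 (0.66), S5 (0.84) or S17 (0.87), and that of ATG27 without S4 (0.58) or S5 (0.65), so that 1 of the 4 was left without S5. In YPD, ATG5 was called higher in I775E than with both other alleles and ATG34 than with YJM789, while ATG34 in I775E over S96 stood at 0.95 ± 0.34 (adjusted p = 0.062). In glycerol neither gene was called between I775E and S96 (0.06 ± 0.19 for ATG5 and -0.30 ± 0.19 for ATG34).

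Genes that work with the ATG proteins were counted from 7 lists, beside shares over all loci that were 29.1%, 28.5% and 33.2% higher and 28.6%, 27% and 32.3% lower in glycerol with S96, YJM789 and I775E. In 4NQO the shares over all loci were 15.9%, 10.3% and 12.9% higher and 15.3%, 9.85% and 13% lower in the same order. The 11 loci that carry an ATG symbol or synonym in RefSeq but another name in the deposited table were called higher in glycerol in 9, 11 and 9 cases with S96, YJM789 and I775E, and lower in 0, 0 and 1. ATG39 (YLR312C in the table), the receptor gene of nuclear autophagy, had 2.49 and 1.97 CPM in YPD (5 counts in each) and 193 and 180 CPM in glycerol with S96, a log2 fold change of 6.37 ± 0.30, above that of any of the 27 members. With YJM789 and with I775E it rose by 4.21 ± 0.26 and 4.21 ± 0.30. ATG36 and ATG40, the receptor genes for peroxisomes and for endoplasmic reticulum, rose by 3.50 ± 0.23 and 3.30 ± 0.25 with S96. ATG41 (ICY2), whose product acts on Atg9 movement, rose in glycerol with S96 (1.69 ± 0.21) and YJM789 (1.97 ± 0.22) and fell with I775E (-0.48 ± 0.16). In YPD ATG41 had 343 and 365 CPM with I775E against 26.9 and 23.3 CPM with S96 (3.82 ± 0.19). In that comparison 2 of the 11 loci were called higher and 0 lower, where 7.28% and 4.41% of all loci were. In 4NQO, 7, 3 and 3 of the 11 were called higher and 0, 0 and 1 lower.

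Of 9 genes tested from the list of vacuolar hydrolases, 8 were called higher in glycerol and 1 lower with S96. The counts were 8 and 1 with YJM789, and 7 and 0 with I775E. AMS1, the alpha-mannosidase gene whose product is a cargo of Atg19 and Atg34, rose by 4.43 ± 0.19, 3.59 ± 0.18 and 3.18 ± 0.17. ATH1, the vacuolar trehalase gene, rose by 4.46 ± 0.23, 3.38 ± 0.22 and 3.49 ± 0.23, and PRB1, a protease gene, rose by 2.84 ± 0.14 with S96. VPH1, a subunit gene of the vacuolar proton pump listed with them, fell with S96 (-0.67 ± 0.12) and YJM789 (-0.62 ± 0.12). In 4NQO, 7, 6 and 6 of the 9 were called higher and 0 lower. LAP4, the gene of the Atg19 cargo aminopeptidase I, rose by 3.11 ± 0.17 in 4NQO with S96, 1.86 ± 0.16 with YJM789 and 1.16 ± 0.15 with I775E. Of 14 tethering and fusion genes, 2, 4 and 3 were called higher and 0, 1 and 2 lower in glycerol, and 1, 0 and 1 higher in 4NQO. These shares in glycerol were near or under those of all loci in both directions, and the shares called higher in 4NQO were under those of all loci. Of 5 selective cargo and adaptor genes, 4 were called higher in glycerol and 1 lower with each allele. This list overlaps the hydrolase list, so the 2 counts are not separate.

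Of 13 transcriptional regulators of autophagy genes, 4, 5 and 8 were called higher in glycerol and 3, 1 and 0 lower with S96, YJM789 and I775E, and with S96 both shares were near those of all loci. GIS1 rose by 1.19 ± 0.21, 1.37 ± 0.20 and 2.33 ± 0.22 and RPH1 by 0.72 ± 0.20, 1.17 ± 0.20 and 0.53 ± 0.20, both known as repressors of ATG genes. GAT1, a nitrogen-regulated activator, rose by 1.30 ± 0.19, 1.26 ± 0.19 and 1.8 ± 0.17. HAP4, the activator subunit gene for respiratory genes, was lower in I775E than with S96 in YPD (-1.67 ± 0.20) and in glycerol (-1.09 ± 0.18). For I775E over S96, 1 of the 13 regulators was called higher and 2 lower in YPD, where 7.28% and 4.41% of all loci were. In glycerol 4 of the 13 were called higher and 2 lower, where 20.7% and 27.6% of all loci were. Of 18 nutrient kinase genes, which include SNF1, 8, 5 and 7 were called higher in glycerol and 3, 1 and 2 lower, and with YJM789 and I775E the shares called higher were near those of all loci. Of the 3 further genes of the phosphatidylinositol kinase complex, 2, 3 and 2 were called higher in glycerol, of which VPS30 also counts among the 11 loci above, as SNX4 does from the fusion list.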

How the data were processed

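Total RNA of 18 yeast libraries was sequenced from unstranded TruSeq libraries on a MiSeq instrument. The submitters' processing notes name CASAVA 1.7. According to the methods of the study, the authors aligned reads to R64-1-1 with TopHat2 2.0.12 and counted them per locus with Rsubread. The deposited counts are whole numbers of reads per locus and were not normalised, and the deposited FPKM values were computed by the authors from these counts and exon length (all were recomputed within 0.1 plus 0.5%) and rounded to 1 decimal. A deposited table of the authors' own fold changes and p-values was not used.

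Members were the 28 loci whose name in the FPKM table is ATG and digits. The members, the companion lists and the alternatives were chosen with earlier results of these data known. Counts were analysed with edgeR 4.0.16 in R 4.3.3 (limma 3.58.1) by the two-sided quasi-likelihood test. Loci had to pass filterByExpr with a minimum count of 10, libraries were scaled by TMM, and 1 model with 9 group means over 18 libraries was fitted to 5766 loci. Adjusted p-values are Benjamini-Hochberg values over all 5766 loci of a comparison, 21 comparisons were made, and the threshold was 0.05. CPM values are counts per TMM-scaled library, except the sums of the mating-type genes and of all 28 ATG genes, which used unscaled totals. The alternatives were DESeq2 size factors in edgeR, the DESeq2 1.42.0 Wald test, no filter on low counts, and leaving out each library. The edgeR script was tested on simulated data. Every member could be named. Values in single libraries are given for ATG1, ATG8, ATG9, ATG13 and ATG32 and for up to 3 called members at each end of a comparison, and companion lists were counted by direction, with up to 4 genes of a list named by size of change. A result for 1 listed kinase gene is not reported here. The library values of ATG39 and ATG41, VPH1 as the fallen gene of the hydrolase list, and those of ATG34 and ATG19 beyond this rule, were chosen after their values were seen. Replicate libraries differed by more than the sampling noise of independent counts (chi-square per degree of freedom 3.26 to 5.44), and came from 2 replicate cultures per allele according to the labels. The highest total of counts was above the number of read pairs that the study gives per sample, so the 2 reads of a pair may have been counted separately. The part of such counting in the chi-square values was not tested. The p-values rest on 1 estimate of spread per locus, shared by all 9 groups and moderated over loci (mean prior degrees of freedom 19.9). They do not measure the spread between the 2 cultures of a single group. YPD and 4NQO libraries of an allele share these cultures, which the model of unpaired group means did not use, since the libraries of 1 culture are not matched in the labels. Total counts of 1475372 to 2826771 limit the precision for members with few counts. Promoter windows were read from the RefSeq R64 genome with Python 3.11.15, and figures were drawn with matplotlib 3.10.9.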

Additional observations from a re-analysis of the deposited data

Results flagged for a closer look

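The response to a medium differed between I775E and another allele, by an interaction term of the edgeR model, in 9 cases over 6 ATG genes. In glycerol 14.8% of members were called different from S96 and 7.41% from YJM789, against 31.4% and 32.7% of all loci. Whether members differed less often than other loci was not tested. Of the members, 10 had fewer than 20 counts in some YPD library, which limits what could be called. In 4NQO the shares were 7.41% and 3.7% in the same order, against 5.06% and 6.42% of all loci. Each value below is the log2 fold change over YPD in I775E minus that with the other allele, with its adjusted p. In 4NQO the difference from S96 was -1.36 for ATG22 (5.3e-05) and -0.89 for ATG33 (0.039), and the difference from YJM789 was -0.76 for ATG22 (0.028). In glycerol the difference from S96 was -0.97 for ATG5 (0.0066), -1.25 for ATG34 (0.013), 0.68 for ATG27 (0.017) and 1.0 for ATG32 (0.019). In glycerol the difference from YJM789 was -1.02 for ATG5 (0.0038) and -1.68 for ATG34 (0.0028). SNF1 had 0 to 2 counts in every I775E library, so the allele and the missing transcript cannot be told apart in these values.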

How the results depend on the processing

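With 1 library left out at a time, the number of ATG genes called was 10 to 15 (16 with all libraries) in 4NQO with S96, 3 to 6 (5) with YJM789 and 3 to 6 (10) with I775E. It was 1 to 2 (4) for I775E over YJM789 in YPD, 0 to 1 (1) for YJM789 over S96 in glycerol and 3 to 7 (9) for I775E over S96 in glycerol. For the differences of responses it was 1 to 2 (2) and 0 to 1 (1) in 4NQO for I775E minus S96 and minus YJM789, and 1 to 4 (4) and 1 to 3 (2) in glycerol. Without the filter on low counts 2 members were called in place of 1 for the 4NQO response of I775E minus that of YJM789. For single genes, 854 values kept their direction and side of the threshold, 135 lost a call, 1 gained one (ATG13 in glycerol with I775E without S18) and 5 changed sign. The last were uncalled values: ATG32 in 4NQO with S96 (-0.17 without S3, -0.25 without S10, range up to 0.41) and with YJM789 (-0.11 without S2, range up to 0.83), and ATG13 in glycerol with YJM789 (-0.04 without S13, -0.048 without S14, range up to 0.10). The causes were not tested. Leaving out a library also left 1 in its group, which weakens the test at every locus and not at ATG genes alone. No paired analysis was possible because, although YPD and 4NQO libraries came from subcultures of the same cultures, no label matches the libraries of 1 culture. Members with under 20 counts in a YPD library limit what could be detected.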
